A study of Mus musculus with 9 samples.

Results

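The transcripts of 6 metabotropic glutamate receptors (Grm2, Grm3, Grm4, Grm5, Grm7 and Grm8) and of the 3 Homer scaffolds (Homer1, Homer2 and Homer3) were followed in RNA of hippocampal synaptoneurosomes, a homogenate fraction enriched in synaptic terminals. These 9 genes were taken by name, through their Ensembl identifiers, from the 22255 identifiers of the deposited table, and all 9 passed the filter on low counts. No measured value was a criterion of that choice, though it was made with earlier results of these data known. Other genes of the receptor family are not analysed here.

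Every sample came from an Fmr1 KO mouse of the C57Bl/6J strain, so treated and control samples alike lack a working copy of the fragile X gene by their labels. The AM6545 group (n = 4, samples A, B, C and E) had received sub-chronic AM6545, a CB1 cannabinoid receptor blocker that enters the brain poorly. The vehicle group (n = 5, samples A to E) had received vehicle. Dose, age, sex and the Fmr1 allele are not given in the sources used here, and samples of other genotypes are not analysed here. The labels do not say whether each sample is a separate animal. The p-values set the group difference against the spread between these samples, some of which may be technical. If some samples share an animal, the p-values could be too small. The series title places the work in fragile X syndrome and peripheral CB1 inhibition, and the comparison addressed here is whether synaptic receptor and scaffold transcripts differed between the treated and the vehicle samples.

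Metabotropic glutamate receptors are G protein-coupled receptors that tune synaptic strength. Grm5 belongs to group I, which signals through Gq and phospholipase C at the edge of the postsynaptic density and triggers a form of long-term depression that needs local protein synthesis. Grm2 and Grm3 form group II, and Grm4, Grm7 and Grm8 belong to group III; both groups couple to Gi and Go and mostly restrain transmitter release. Homer proteins bind the tail of group I receptors through their EVH1 domain and link them to Shank scaffolds and to the IP3 receptor, and the short, activity-induced Homer1a lacks the coiled coil that joins Homer proteins together. FMRP, the product of Fmr1, restrains the translation that group I receptors drive, which is why this pathway is much studied in fragile X models.

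The promoter sequences of 3 members are shown because these genes carry the patterns described later: Homer1 stood well above its other samples in vehicle C, Homer2 stood highest per kilobase of median transcript, and Grm2 had the smallest unadjusted p. Each runs from 250 bases before to 50 bases after a RefSeq transcript start, is printed 5′ to 3′ on the strand of its gene, and comes from RefSeq on GRCm38.p6. Windows were found for 7 of the 9 members, 12 windows in all. Capitals mark TGACG, the half-site of the cAMP response element, in Homer1 (chr13:93303507-93303806, plus strand). They mark the GC box GGGCGG or its complement in Homer2 (chr7:81706876-81707175, minus strand) and in Grm2 (chr9:106656060-106656359, minus strand).
Homer1: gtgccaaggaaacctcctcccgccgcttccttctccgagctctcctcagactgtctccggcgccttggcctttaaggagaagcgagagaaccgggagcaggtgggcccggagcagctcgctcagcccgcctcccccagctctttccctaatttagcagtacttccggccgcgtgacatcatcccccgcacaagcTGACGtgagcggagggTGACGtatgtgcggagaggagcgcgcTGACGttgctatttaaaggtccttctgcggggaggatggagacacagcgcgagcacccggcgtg
Homer2: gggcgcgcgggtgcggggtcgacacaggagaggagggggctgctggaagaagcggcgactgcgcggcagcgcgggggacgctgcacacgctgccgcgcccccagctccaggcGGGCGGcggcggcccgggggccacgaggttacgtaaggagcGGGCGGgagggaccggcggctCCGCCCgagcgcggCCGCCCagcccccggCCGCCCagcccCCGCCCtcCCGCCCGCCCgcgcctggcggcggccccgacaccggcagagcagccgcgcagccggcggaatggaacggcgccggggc
Grm2: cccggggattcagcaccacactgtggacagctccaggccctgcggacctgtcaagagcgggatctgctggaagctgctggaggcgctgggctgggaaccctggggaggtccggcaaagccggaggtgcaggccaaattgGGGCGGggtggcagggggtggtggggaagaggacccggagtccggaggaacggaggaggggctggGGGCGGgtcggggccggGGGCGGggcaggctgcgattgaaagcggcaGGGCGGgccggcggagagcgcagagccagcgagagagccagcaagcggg

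The Homer1 window shown held 3 half-sites TGACG, which began 56, 40 and 14 bases before the start. On either strand, at least 1 such half-site occurred in 20.81% and at least 3 in 1.035% of 32851 mouse windows of the same length. No window of a member held the full element TGACGTCA, which occurred in 1.79% of all windows. The second Homer1 window held 0 half-sites. The Homer2 window shown held 8 GC boxes, some of which overlap each other, and as many occurred in 0.2618% of all windows. It also held 49 CpG dinucleotides, a number reached by 1.02% of windows, while the second Homer2 window held 0 GC boxes and 3 CpG dinucleotides. The Grm2 window held 4 GC boxes, and 5.485% of windows held as many or more. GC boxes were not particular to the genes shown: 6 of the 7 members with a window had at least 1, and the Homer3 window held 5. At least 1 GC box occurred in 35.66% of all windows. A half-site TGACG occurred in windows of 2 members, Homer1 and Grm8. These letters describe the windows only, since no measure of factor binding or methylation was used.

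Gene levels are given as CPM, each gene's counts scaled to a common library size after TMM normalization. Total counts ran from 17628922 to 27263393 per sample. The members had 99 counts (the lowest, Grm4) to 5441 counts (the highest, Grm5) in a single sample. Fmr1 itself kept 199 to 310 counts in every sample, and its level was 10.1 ± 0.754 CPM with AM6545 (SD, n = 4) and 11.7 ± 1.18 CPM with vehicle (SD, n = 5). Gene-level counts do not show whether those transcripts are intact, so this checks the knockout label only in part. Hippocampal excitatory markers were present as labelled, all 7 of 7 at 1 CPM or more in every sample, with sums of 1716 to 2075 CPM with AM6545 and 1610 to 1858 CPM with vehicle. Choroid plexus markers varied most, from 459.7 to 3565 CPM with AM6545 and from 317 to 10930 CPM with vehicle. Of 14512 genes tested with edgeR's quasi-likelihood test, 0 (0%) passed a Benjamini-Hochberg adjusted p of 0.05, while 1047 had an unadjusted p below it. DESeq2 and limma-voom also called 0 genes, with 1121 and 870 at the unadjusted level.

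None of the 9 members passed the adjusted threshold, against a background of 0% of all genes tested, and their smallest adjusted p was 0.653. At the unadjusted level 1 member, Grm2, fell below 0.05, against 7.21% of all genes in either direction and 3.03% in the higher direction. None of the 9 members had CPM ranges that separated the groups, against 1.45% of all genes. The mean was higher with AM6545 for 7 of the 9 members, and their median log2 fold change was 0.131, beside -0.009 over all genes, 48.21% of which had a positive fold change. Among the receptors 5 of 6 had a positive fold change (median 0.173), and among the Homer genes 2 of 3 did (median 0.087). The medians of marker lists stood at 0.12 for neurons, 0.132 for hippocampal excitatory neurons and 0.114 for dentate granule cells. For interneurons the median was -0.091. Microglia (0.126) and oligodendrocyte precursors (0.077) had positive medians as well. They were -0.036 for astrocytes, -0.116 for oligodendrocytes, -0.304 for endothelial cells and -1.259 for choroid plexus. Thalamus markers had a median of -0.027 and cerebellar granule cell markers one of -0.319. The part of such markers in the values of the 9 genes was not tested. In bulk RNA a different share of the terminals or cells that hold a transcript and a different amount of it in each cannot be told apart.

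**Figure D1:**
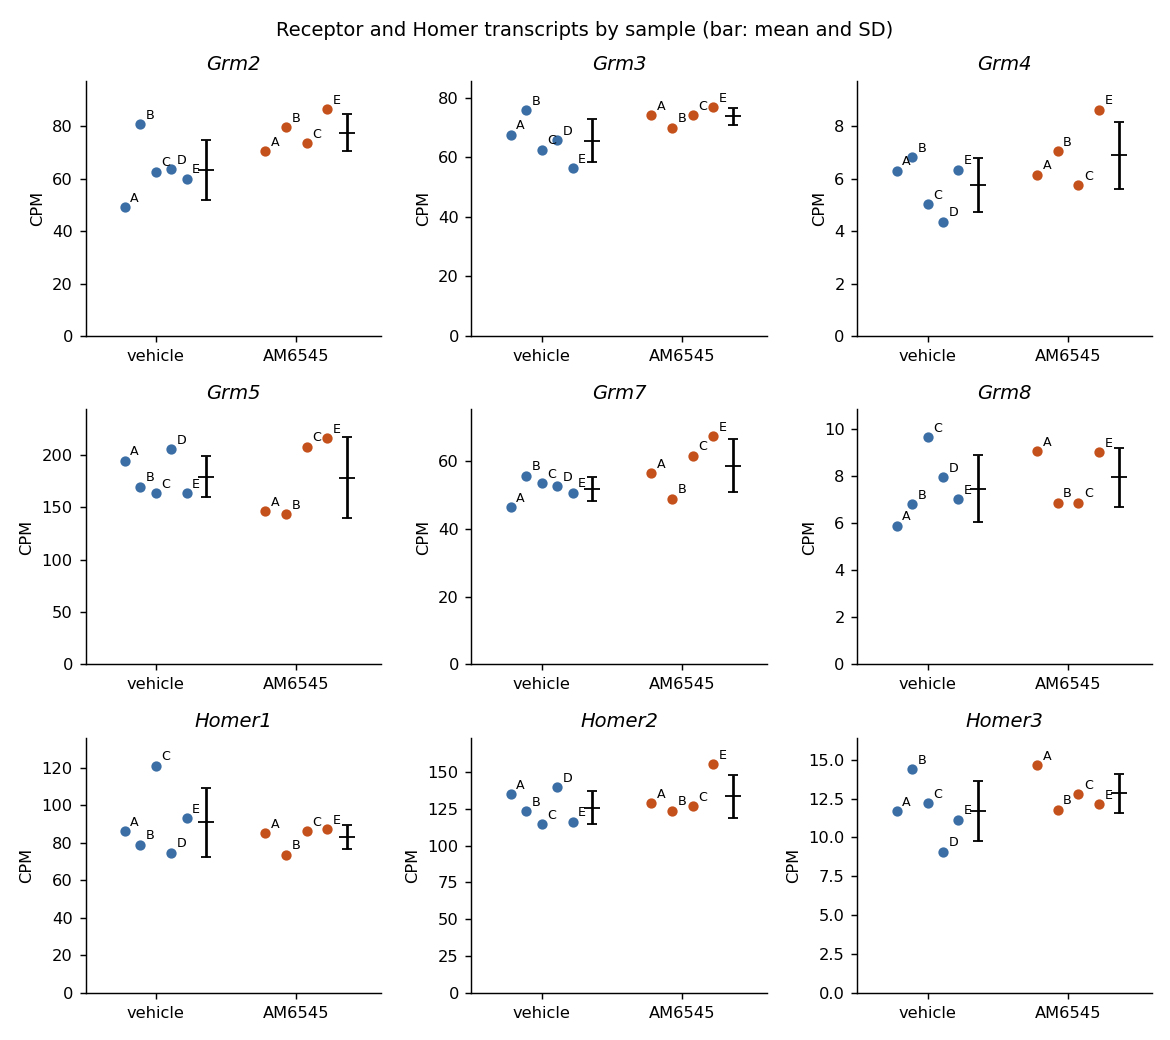
CPM of the 9 genes (vertical axes, from 0) in the 5 vehicle samples (blue) and the 4 AM6545 samples (orange), 1 point per sample with its letter, and the mean with its SD at the right of each group. The groups overlap for every gene; Grm2 is above the vehicle mean in 4 of 4 AM6545 samples, and Homer1 peaks in vehicle C at 121 CPM.

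Grm5, the group I receptor, had nearly equal means in the 2 groups but was spread differently within them. Its level was 146, 143, 208 and 216 CPM in AM6545 A, B, C and E. In vehicle A to E it was 195, 170, 163, 205 and 163 CPM. The AM6545 samples thus lay at both ends, with A and B below every vehicle sample and C and E above every one, so the AM6545 range enclosed the vehicle range. The means were 179 ± 38.9 CPM (SD, n = 4) and 179 ± 19.5 CPM (SD, n = 5). The log2 fold change was -0.0058 (SE 0.137, 95% interval -0.30 to 0.29, edgeR adjusted p = 0.993; two-sided exact permutation p = 0.952). The interval leaves room for a change of up to 1.22-fold in the higher direction and down to 0.813-fold in the lower one. The sign of a value this close to 0 turned with the sample left out. It was -0.11 when AM6545 E was left out and 0.086 when AM6545 B was, and it was 0.0023 with DESeq2's size factors.

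Grm2, the group II receptor found on hippocampal mossy fibre terminals, had the highest fold change of the 9 genes. Its level was 70.5, 79.6, 73.4 and 86.5 CPM in AM6545 A, B, C and E. In vehicle A to E it was 49.2, 80.8, 62.7, 63.5 and 59.9 CPM. All 4 AM6545 samples lay above the vehicle mean, but vehicle B lay above 3 of them, so the ranges overlapped. Mean levels were 77.5 ± 7.11 CPM with AM6545 (SD, n = 4) and 63.2 ± 11.4 CPM with vehicle (SD, n = 5). They differed by 1.23-fold, with a 95% interval of 1.02 to 1.48. The log2 fold change was 0.29 (SE 0.125), with an unadjusted p of 0.0341 and an edgeR adjusted p of 0.653. The two-sided exact permutation test gave p = 0.0794, where the smallest p that 4 samples against 5 allow is 0.0159. The edgeR p without 1 sample ranged from 0.0036 without vehicle B to 0.0957 without AM6545 E, and it was also above 0.05 without AM6545 B (0.0665), vehicle A (0.0787), vehicle C (0.0519), vehicle D (0.0516) or vehicle E (0.0684). Dentate granule cell markers, whose axons are the mossy fibres, summed to 502 to 605 CPM with AM6545 and 469 to 571 CPM with vehicle, with 6 of 6 markers at 1 CPM or more everywhere. Their sum was lowest in vehicle A, where Grm2 was lowest as well. In AM6545 E, where Grm2 was highest, the sum was 502 CPM, the lowest of the AM6545 samples. The part of these cells in the Grm2 values was not tested.

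Grm3, the group II receptor that astrocytes express as well as neurons, lay close together in the treated samples. It stood at 74.1, 70.0, 74.1 and 76.8 CPM in AM6545 A, B, C and E. The vehicle samples A to E held 67.6, 75.9, 62.6, 65.7 and 56.3 CPM. Again all 4 treated samples lay above the vehicle mean and vehicle B reached into their range. The means were 73.7 ± 2.81 CPM (SD, n = 4) and 65.6 ± 7.16 CPM (SD, n = 5). The log2 fold change of 0.17 (SE 0.096, 95% interval -0.038 to 0.37) did not pass (edgeR adjusted p = 0.661; two-sided exact permutation p = 0.0635). Astrocyte markers summed to 3835 to 4070 CPM with AM6545 and 3046 to 4850 CPM with vehicle, all 8 of 8 above 1 CPM throughout. Vehicle B was the highest and vehicle C the lowest for these markers. Their part in the Grm3 values was not tested.

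Grm7, the low-affinity group III receptor of the presynaptic active zone, was the most abundant of its group per kilobase. Its level was 56.5, 49.0, 61.7 and 67.4 CPM in AM6545 A, B, C and E. Vehicle A to E gave 46.5, 55.8, 53.6, 52.6 and 50.7 CPM. In 3 of 4 AM6545 samples it exceeded the highest vehicle sample, and AM6545 B fell inside the vehicle range. The means were 58.6 ± 7.84 CPM (SD, n = 4) and 51.8 ± 3.50 CPM (SD, n = 5). Grm7 had a log2 fold change of 0.18 (SE 0.104, 95% interval -0.044 to 0.40). The edgeR adjusted p was 0.662 and the two-sided exact permutation p was 0.143. Without AM6545 B the log2 fold change was 0.26 (unadjusted edgeR p 0.0251), and without AM6545 E it was 0.10 (unadjusted edgeR p 0.327).

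Grm4 and Grm8, the other group III receptors studied, were scarce, at 99 to 217 and 102 to 227 counts per sample, so their values are the least precise. Grm4, best known from cerebellar granule cells, was at 6.15, 7.03, 5.75 and 8.62 CPM in AM6545 A, B, C and E. In vehicle A to E it was at 6.30, 6.81, 5.03, 4.35 and 6.33 CPM. AM6545 E and B were the highest samples and the ranges overlapped. Its log2 fold change was 0.26 (SE 0.169, 95% interval -0.10 to 0.62, edgeR adjusted p = 0.679; two-sided exact permutation p = 0.206), and it was 0.13 without AM6545 E and 0.17 without vehicle D. Of the 6 cerebellar granule cell markers, Gabra6, Zic2 and Cbln3 were under 1 CPM in every sample, and 1 was at 1 CPM or more in every sample. Their sum was 11.5 to 12.6 CPM with AM6545 and 12.7 to 18.3 CPM with vehicle. The part of these cells in the Grm4 values was not tested.

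Grm8 stood at 9.05, 6.86, 6.87 and 9.02 CPM in AM6545 A, B, C and E. The vehicle samples held 5.89, 6.81, 9.65, 7.95 and 7.004 CPM. Highest was vehicle C and lowest vehicle A, so the vehicle range enclosed the AM6545 range. The fitted log2 fold change was 0.091 (SE 0.159, 95% interval -0.25 to 0.43, edgeR adjusted p = 0.885; two-sided exact permutation p = 0.587). With 1 sample left out it ran from 0.020 without vehicle A to 0.20 without vehicle C. It was also 0.025 without AM6545 A, 0.023 without AM6545 E, 0.060 without vehicle B, and 0.155 without AM6545 B or AM6545 C.

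**Figure D2:**
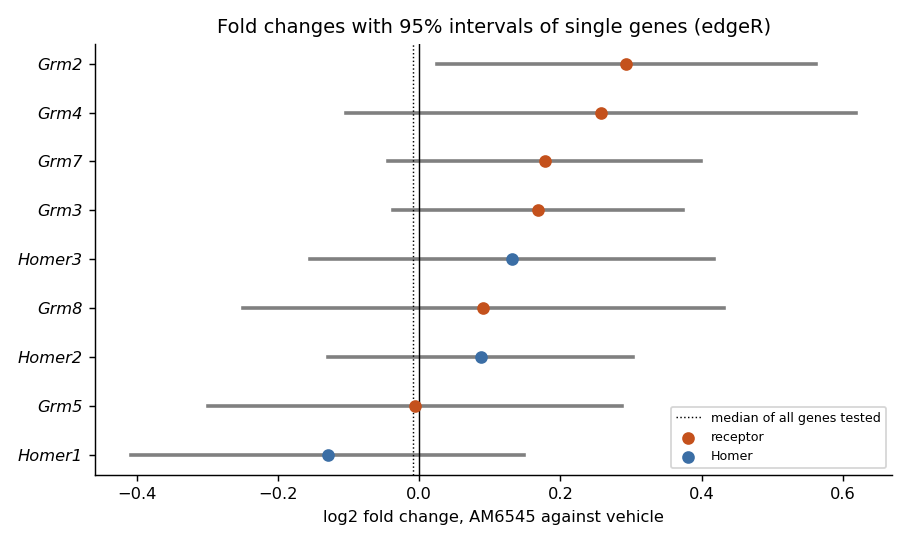
Log2 fold change of each gene, AM6545 against vehicle (horizontal axis), from edgeR, with bars for the 95% interval of that gene alone, receptors in orange and Homer genes in blue, and a dotted line at the median of all genes tested. Only the Grm2 interval, 0.025 to 0.56, lies wholly above 0, and this interval is not adjusted for the number of genes tested.

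Homer1, which encodes both the long coiled-coil scaffold and the short Homer1a, was the one Homer gene with a lower mean in the treated group. It was at 85.3, 73.8, 86.2 and 87.2 CPM in AM6545 A, B, C and E. In vehicle A to E it was at 86.4, 79.1, 121, 74.8 and 93.3 CPM. Vehicle C stood far above the other samples, and every AM6545 value lay inside or just below the range of the other vehicle samples. The means were 83.1 ± 6.28 CPM (SD, n = 4) and 91.0 ± 18.3 CPM (SD, n = 5). The log2 fold change was -0.13 (SE 0.130, 95% interval -0.41 to 0.15, edgeR adjusted p = 0.777; two-sided exact permutation p = 0.492), and it was -0.0048 without vehicle C and -0.076 without AM6545 B. The counts are per gene, so Homer1a and the long forms could not be separated.

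Vehicle C also stood apart in its cell type markers. Its neuronal markers summed to 8618 CPM, against 6001 to 7533 CPM in the other samples, with 6 of 6 markers above 1 CPM. The interneuron markers were also highest there, at 859 CPM. Hippocampal excitatory markers were not, at 1619 CPM in vehicle C beside 1610 CPM in the lowest sample, vehicle A. Dentate granule cell markers, at 553 CPM in vehicle C, lay within the range of the other vehicle samples. Its astrocyte markers summed to 3046 CPM and its oligodendrocyte markers to 10740 CPM, the lowest sum of both lists among the 9 samples. Microglial, endothelial and choroid plexus markers were likewise lowest there, with Cdh5, an endothelial marker, under 1 CPM in every sample. The part of these differences in the Homer1 value of vehicle C was not tested.

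Homer2, the scaffold with the most reads of the 3, had means closer to each other than the spread within either group. Its level was 129, 124, 127 and 155 CPM in AM6545 A, B, C and E. Vehicle A to E gave 135, 123, 115, 139.7 and 116 CPM. AM6545 E was the highest sample, and the other 3 treated samples lay within the vehicle range. The means were 134 ± 14.6 CPM (SD, n = 4) and 126 ± 11.2 CPM (SD, n = 5). For Homer2 the log2 fold change was 0.087 (SE 0.101, 95% interval -0.13 to 0.30, edgeR adjusted p = 0.810; two-sided exact permutation p = 0.413), and it was 0.0065 without AM6545 E and 0.056 without vehicle C.

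Homer3, the scaffold known for its level in cerebellar Purkinje cells, was the least abundant Homer gene. It was at 14.6, 11.8, 12.8 and 12.1 CPM in AM6545 A, B, C and E. In vehicle A to E it was at 11.7, 14.4, 12.2, 9.09 and 11.1 CPM. Vehicle D was the lowest sample, and AM6545 A and vehicle B were the highest. The log2 fold change was 0.13 (SE 0.134, 95% interval -0.15 to 0.42, edgeR adjusted p = 0.780; two-sided exact permutation p = 0.302), and it was 0.052 without vehicle D, 0.064 without AM6545 A and 0.23 without vehicle B. In the GENCODE M21 annotation 25.4% of the exonic bases of Homer3 overlap Ddx49 on the opposite strand. The strand setting of the counting is not given in the sources used here, so reads of the pair cannot be told apart there. The same limit holds for smaller opposite-strand overlaps of Grm2 (9.6%, Gm28111), Homer2 (4.16%, Gm44570) and Grm7 (2.21%, Gm20387). These overlapping genes are not among the identifiers of the deposited table.

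Set side by side per kilobase of median transcript length, the 9 genes fell into an abundant set of 6 and a scarce set of 3. Homer2 was highest at 76.7 CPM per kilobase (mean of 9 samples) and exceeded Grm5 in 9 of 9 samples. Grm5 (39.8), Homer1 (35.4), Grm2 (31.9) and Grm7 (31.0 CPM per kilobase) followed, and each overlapped its neighbour in that order. Grm3, at 22.7 CPM per kilobase, was below Grm7 in 9 of 9 samples. Homer3 followed at 5.25, Grm8 at 2.71 and Grm4 at 1.83 CPM per kilobase. Grm8 exceeded Grm4 in 9 of 9 samples although their ranges overlapped.

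The order of the abundant set depends on which transcript is taken as the length. With the longest protein-coding transcript Grm3 (22.7) and Grm5 (22.2 CPM per kilobase) came first and overlapped, followed by Homer1 (15.3), Grm2 (14.8), Grm7 (13.1) and Homer2 (11.8 CPM per kilobase). Homer2 moved from first to sixth because its median transcript has 1685 bases and its longest 10982. The scarce set kept its order, with Homer3 at 4.68, Grm8 at 1.99 and Grm4 at 1.36 CPM per kilobase, and Homer3 stayed below Homer2 in 9 of 9 samples.

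**Figure D3:**
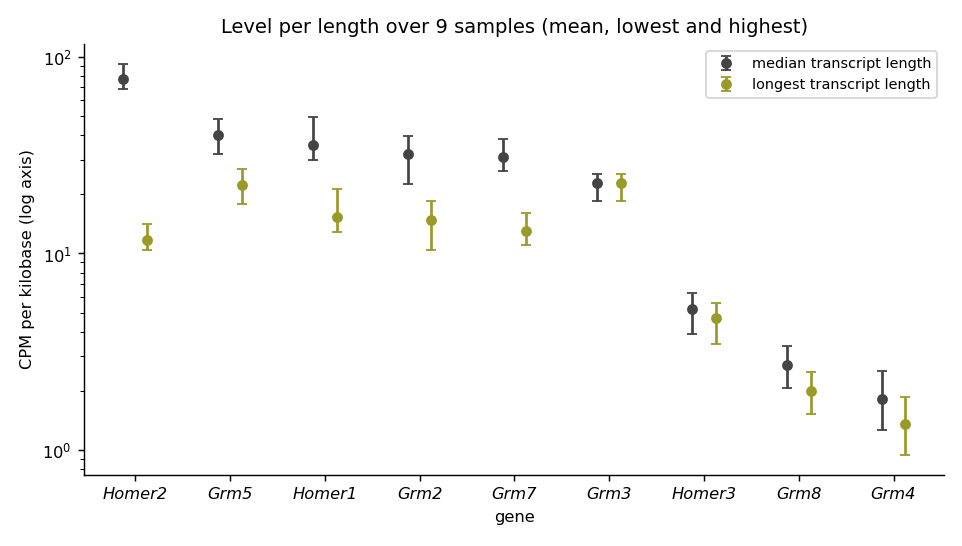
CPM per kilobase on a log axis for the 9 genes, as the mean over 9 samples with bars from the lowest to the highest sample, by median (dark) and longest (olive) protein-coding transcript length. Homer2 moves from 76.7 to 11.8 CPM per kilobase with the length taken, while Homer3, Grm8 and Grm4 stay lowest by both.

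Within each family the shares of the members overlapped between the groups. Of the summed receptor level per kilobase of median transcript, Grm5 made up 28.7% ± 3.33 with AM6545 (SD, n = 4) and 32.2% ± 3.60 with vehicle (SD, n = 5). Grm2 made up 26.0% ± 2.55 and 23.3% ± 2.98 in the same order. The Grm5 share ranged from 25.8% to 32.3% with AM6545 and from 27.8% to 36.6% with vehicle. Of the summed Homer level, Homer1 made up 28.5% ± 1.67 with AM6545 and 31.6% ± 5.58 with vehicle, and it reached 40.1% in vehicle C. These shares were not tested, and they are shares of the 6 receptors and the 3 Homer genes only.

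The samples differed from each other across the family as well as within a gene. AM6545 E was the highest of the 9 samples for 6 of the 9 genes (Grm2, Grm3, Grm4, Grm5, Grm7 and Homer2). Vehicle A was the lowest for 3 of them (Grm2, Grm7 and Grm8), and vehicle C was the highest for Grm8 and Homer1. Over the 9 genes the median log2 fold change ranged from 0.104 to 0.209 when samples were left out 1 at a time.

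**Figure D4:**
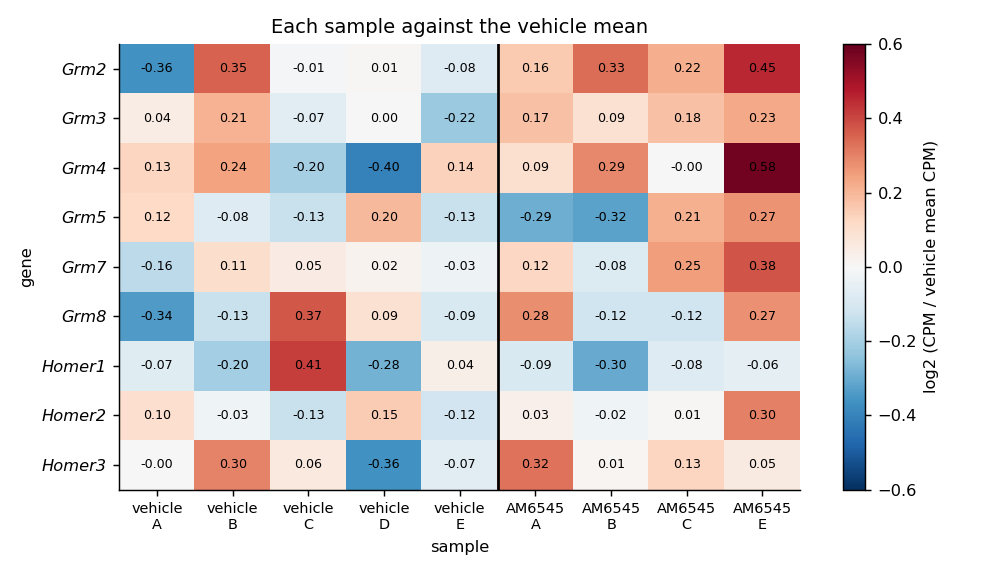
Log2 of each sample's CPM over the vehicle mean of the same gene (colour and printed value), genes in rows and samples in columns, vehicle to the left of the line. AM6545 E is above the vehicle mean for every gene except Homer1, and Grm5 splits the treated samples, with A and B (146 and 143 CPM) below and C and E (208 and 216 CPM) above the vehicle mean of 179 CPM.

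As a description over the 9 samples, which share the same libraries and scaling, 25 of the 36 pairs among these genes had a positive Pearson correlation of log2 CPM, with a median of 0.278. The highest were Grm2 with Grm7 (0.696), Grm5 with Homer2 (0.677) and Grm2 with Grm3 (0.660), and the lowest was Grm3 with Homer1 (-0.434). Grm5 and Homer1, receptor and binding partner, had a correlation of -0.077. Over all tested genes and the same 9 samples, those most like Grm5 were Slc24a2 (0.984), Cd47 (0.978) and Rnf130 (0.971), each highest in AM6545 E and low in AM6545 A and B. Slc24a2 is a potassium-dependent sodium-calcium exchanger and Cd47 a cell-surface protein that restrains phagocytosis. Those most like Homer1 were Ensa (0.980), Rffl (0.980) and Zfp60 (0.972), each highest in vehicle C. Ensa encodes an inhibitor of the phosphatase PP2A, and Rffl a ubiquitin ligase. Being the highest of 14512 values over 9 samples, these likenesses are descriptions only.

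Genes that act with the receptors were read from 6 lists of 66 genes, all of which were tested. None passed the adjusted threshold, and 5 of the 66 had an unadjusted p below 0.05, all in the higher direction by edgeR, beside 3.03% of all genes in that direction. The fold change was positive for 50 of the 66 (75.76%, against 48.21% of all genes), and their median was 0.116. Among the neuronal marker lists the medians were 0.12 for neurons, 0.132 for hippocampal excitatory neurons, 0.114 for dentate granule cells and -0.091 for interneurons. The part of such markers in these counts was not tested. For 3 of the 66 the 2 groups had separate ranges, beside 1.45% of all genes. These lists were chosen with earlier results of these data known, so their counts are descriptions.

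Downstream of Grm5, 12 of 14 group I signalling genes had a positive fold change, with a median of 0.188. Rgs4, which shortens Gq signals, was the lowest (-0.051, SE 0.145, edgeR adjusted p = 0.936). The ranges did not overlap for Gna11, a Gq-class subunit (0.10), and for Prkcb, a protein kinase C (0.22, unadjusted p = 0.0548); both were named because of that count, after their values were seen.

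Among the scaffolds that Homer binds or neighbours, 9 of 11 had a positive fold change, with a median of 0.093. Dlgap2, which ties PSD-95 to Shank, was the highest (0.24, SE 0.112, unadjusted p = 0.0465, edgeR adjusted p = 0.653), with 40.2 ± 3.77 CPM (SD, n = 4) against 33.9 ± 4.45 CPM (SD, n = 5). By the exact permutation test the p of Dlgap2 was 0.0794. Shank1, a direct Homer partner, was the lowest (-0.085, SE 0.173), with 139 ± 19.6 CPM against 148 ± 40.8 CPM.

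Of the 9 proteins that bind the receptors themselves, 7 had a positive fold change, with a median of 0.102. Ncdn, the neuronal protein neurochondrin that binds Grm5, was the highest (0.39, SE 0.196, edgeR adjusted p = 0.653), and Siah1a, a ubiquitin ligase of group I receptors, the lowest (-0.096, SE 0.110). Ncdn was at 2663, 3147, 2415 and 1618 CPM in AM6545 A, B, C and E and at 1308 to 2467 CPM with vehicle. AM6545 A and B were above every vehicle sample, and AM6545 E was within the vehicle range.

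For the Gi and Go pathway that Grm2, Grm3, Grm4, Grm7 and Grm8 share, 7 of 12 genes had a positive fold change, and the median of 0.046 was the lowest of the 6 lists. Kcnj6, a potassium channel opened by these receptors, was the highest (0.25, SE 0.129), and Gnai3, an inhibitory G protein subunit, the lowest (-0.12, SE 0.0887, edgeR adjusted p = 0.708; two-sided exact permutation p = 0.0317). Gnai3 was at 43.3 to 53.3 CPM with AM6545 and 52.5 to 56.1 CPM with vehicle, so the ranges met only at their edges. By the exact permutation test 772 of the 14512 genes had an unadjusted p below 0.05 and 0 passed after adjustment. The adjusted exact permutation p of Gnai3 was 0.746.

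Genes of the translation and depression that group I receptors drive included 3 of the 5 genes with an unadjusted edgeR p below 0.05. All 3 were in the higher direction, beside 3.03% of all genes tested, and the list was chosen with earlier results known. Here 9 of 12 had a positive fold change, with a median of 0.181. Map1b, a microtubule protein and a classical target of FMRP, was at 2232, 2328, 1942 and 2030 CPM in AM6545 A, B, C and E. In vehicle A to E it was at 1590, 1799, 1840, 1912 and 1628 CPM. The 2 ranges did not overlap, and the log2 fold change was 0.28 (SE 0.113, unadjusted p = 0.0251, edgeR adjusted p = 0.653; two-sided exact permutation p = 0.0159, the smallest possible here). After adjustment over all genes tested the exact permutation p of Map1b was 0.746.

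Cyfip1, which joins FMRP to the cap-binding protein and the actin machinery, had a log2 fold change of 0.27 (SE 0.114, unadjusted p = 0.0322). Ptpn5, the synaptic phosphatase STEP, had one of 0.22 (SE 0.0999, unadjusted p = 0.0490). For both the edgeR adjusted p was 0.653 and the ranges overlapped. By the exact permutation test the p was 0.0794 for Cyfip1 and 0.0635 for Ptpn5. Cyfip1 exceeded every vehicle sample in 3 AM6545 samples, but in AM6545 E (112.6 CPM) it was below the vehicle mean of 116.4 CPM. The extremes of the list were Mtor (0.29, SE 0.144) and Rps6kb1, the S6 kinase it activates (-0.16, SE 0.103). Neither had an unadjusted edgeR p below 0.05. Mtor was at 38.56, 45.88, 29.83 and 25.35 CPM in AM6545 A, B, C and E and at 26.35 to 29.75 CPM with vehicle. AM6545 A, B and C thus lay above every vehicle sample and AM6545 E below every one (exact permutation p = 0.238).

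In the glutamate release and uptake list 6 of 8 genes had a positive fold change, with a median of 0.114. Slc17a7, the vesicular glutamate transporter of hippocampal excitatory neurons, was the highest (0.23, SE 0.116, edgeR adjusted p = 0.653). Slc1a2, the main glutamate transporter of astrocytes, was the lowest (-0.094, SE 0.155).

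**Figure D5:**
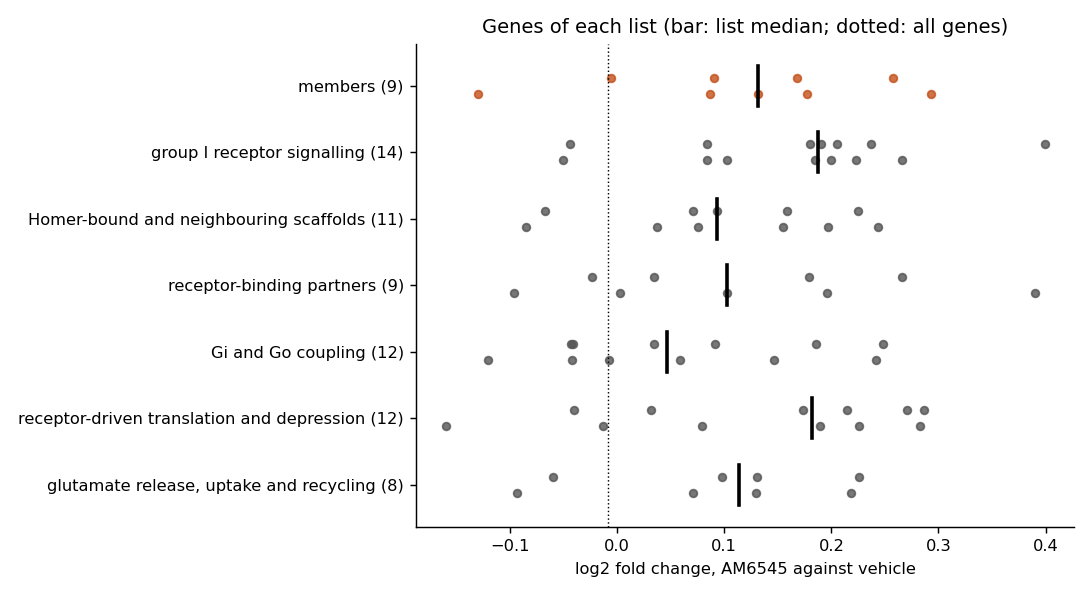
Log2 fold change (horizontal axis) of each of the 9 receptor and Homer genes (orange) and of the genes of the 6 lists (grey), with a bar at each median and the number of genes in brackets; the dotted line is the median of all genes tested. List medians run from 0.046 (Gi and Go coupling) to 0.188 (group I receptor signalling), and no gene shown passed the adjusted threshold.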

How the data were processed

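RNA of hippocampal synaptoneurosomes was sequenced, per the labels' protocols, on an Illumina NovaSeq from libraries of a SMARTer low-input kit. The authors deposited estimated counts per gene for 9 samples, as the fractional values show. Salmon 1.3 and DESeq2 1.30, and the builds GRCm39 and mm10, are named in the submitters' processing notes without a role, so no gene coordinates of the count table are given, and the strand setting is not given in the sources used here. Samples were grouped by the treatment label. Identifiers were matched without version, and 22155 of 22255 had a symbol. Tamalin was matched under its older symbol Grasp. Transcript lengths came from GENCODE M21 and promoter windows from RefSeq; motifs were counted on both strands.

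The estimated counts were rounded, kept by filterByExpr (14512 genes), scaled with TMM and tested by edgeR's quasi-likelihood F-test (edgeR 4.0.16 under R 4.3.3) without a replicate block, with Benjamini-Hochberg adjustment over all genes tested and a threshold of 0.05. The SE is the absolute log2 fold change over the square root of F. CPM values of single genes were also compared by a two-sided exact permutation test over the 126 assignments of 4 and 5 samples (scipy 1.17.1). The fit was checked on simulated data. Alternatives were other size factors, count filters, DESeq2 1.42.0, limma-voom (limma 3.58.1) with and without sample weights, the title letter as a block, removal of a trend with transcript length, the longest transcript as the length, and each sample left out.

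Named were the 9 members, the genes of each list with the highest and lowest fold change or an unadjusted p below 0.05, and the 3 genes most correlated with Grm5 and with Homer1; 1 gene of the lists, included in their counts, is not reported here. The members, lists and tests were chosen with earlier results of these data known.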

Additional observations from a re-analysis of the deposited data

Results flagged for a closer look

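Homer1 in AM6545 B, at 73.8 CPM (1741 counts), lay apart from the other 3 AM6545 samples, which ran from 85.3 to 87.2 CPM; its gap to the nearest was 0.857 of the range of the group, above Dixon's 95% critical value for 4 samples. Homer2 in AM6545 E, at 155 CPM (3908 counts), lay apart from the others at 124 to 129 CPM, with a ratio of 0.846. Of 18 groups of values examined, 9 genes in 2 treatments, chance gives 0.9 such cases. The high Homer1 value of vehicle C did not reach the critical value for 5 samples.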

How the results depend on the processing

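Of 234 values under alternatives, 219 kept their direction and their side of the threshold, 8 moved and 7 reversed, all 7 of them the log2 fold change of Grm5. That value was -0.0058, and it was 0.0023 with DESeq2's size factors, 0.0022 with DESeq2's Wald test, 0.026 with the replicate block, and from -0.11 to 0.086 with 1 sample left out, including 0.078 without AM6545 A, 0.025 without vehicle A and 0.048 without vehicle D. The cause was not tested. The count of genes past the threshold stayed at 0 in every fit except without AM6545 A, where 1 gene, Gm14308, passed (adjusted p = 0.00249), so its range was 0 to 1. No member passed in any fit, and the adjusted p of Grm2 ranged from 0.320 to 0.920. The number of genes with an unadjusted p below 0.05, 1047, ranged from 496 without vehicle A to 1848 without AM6545 E and was 1797 without vehicle B, 663, 642 and 690 without AM6545 A, B and C, and 1823 with sample weights. Grm3 joined Grm2 at that level with sample weights and without vehicle B. The other 7 values that moved were levels per kilobase with the longest transcript. Deviations of same-letter samples correlated at -0.018 (A), 0.037 (B), 0.336 (C) and -0.021 (E), and those of different letters at -0.279 to 0.351. Only AM6545 C correlated best with the vehicle sample of its own letter. The labels do not say what the letters mean. With the replicate block 0 genes passed and 759 had an unadjusted p below 0.05, Grm2 was at 0.31 and Homer1 at -0.18, and the median of the 9 genes was 0.124. Among the scarce genes, Grm4 was at 0.12 with sample weights and 0.17 with the replicate block, Grm8 at 0.136 with sample weights, and Homer3 at 0.21 with sample weights and 0.054 with the block. Depth limits Grm4 and Grm8 most, at 99 and 102 counts in their lowest samples.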

Other observations

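Cnr1, which encodes the CB1 receptor that AM6545 blocks, was at 107, 91.7, 112 and 131 CPM in AM6545 A, B, C and E and at 103 to 119 CPM with vehicle. The treated samples again lay at both ends of the range, and the log2 fold change was 0.0061 (SE 0.105, edgeR adjusted p = 0.989).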
